A study of Mus musculus with 4 samples.

Results

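The genes described here encode products of the mucus and of the glands of the nose, with a pair of transcription factors of the SOX family. They are the mucin Muc5b, the BPI-fold proteins Bpifa1 and Bpifb9b, the odorant-binding lipocalins Obp1a, Obp2a and Obp2b, the secretoglobin Scgb1c1, the antimicrobial lectin Reg3g, and Sox9 and Sox10. These 10 genes were taken by name from the 55511 genes of the deposited UMI tables, and all 10 had at least 1 UMI. They were measured in dissociated cells of the main olfactory epithelium of 4 male mice aged 8 weeks (C57BL/6 in the labels, C57BL/6J in the study's methods), with 1 droplet library (10x Genomics, 3′ end) per mouse and 1 group. All 4 mice were at rest, which in the study means that they were not actively exposed to odors. Cells had been sorted as live and nucleated (Hoechst positive, DRAQ7 negative) after papain dissociation. A UMI is a molecular tag by which amplified copies of 1 transcript are counted once.

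The olfactory mucosa is covered by mucus that odorants must cross to reach the cilia of the olfactory sensory neurons (OSNs). Bowman's glands below the epithelium and sustentacular (supporting) cells within it secrete into this layer, whereas goblet and other secretory cells line the respiratory mucosa next to it. Gel-forming mucins give mucus its structure, BPI-fold proteins and C-type lectins act against bacteria, and lipocalins of the Obp family bind small hydrophobic molecules. Sox9 and Sox10 are transcription factors used elsewhere in the body in gland development and in glia.

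Cells were assigned to the deposited types, which are mature OSNs (10519 cells), immature OSNs (iOSN2, 1006 cells, and iOSN1, 866 cells), immediate neuronal precursors (INP, 284), globose basal cells (GBC, 202), horizontal basal cells (HBC1, 210, and HBC2, 544), sustentacular cells (Sus, 336) and microvillar cells (Mv1, 124, and Mv2, 1768). The study had left out clusters of Immune cells (2391) and Blood cells (314) before these types were drawn, and both were kept here. Of the 21809 barcodes, 15859 belonged to the retained types and 3245 to neither these nor to Immune or Blood. Libraries held 4746 to 6003 barcodes, and 54 barcode sequences occurred in more than 1 library, which were treated as separate cells. The median UMI count per cell was 4861 in mature OSNs, 7187 in HBC2, 5587 in Sus, 2144 in Immune and 5332 in Blood. The levels below are UMIs of a gene per 10000 UMIs of all genes, summed over the cells of 1 type in 1 mouse, so that n = 4 mice. They were not corrected for gene length, and a 3′ assay gives 1 tag per transcript.

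The type names were checked against markers. HBC1 held the basal-cell keratin Krt5 at 21.3 UMIs per 10000 and Trp63 at 7.04, whereas HBC2 held them at 7.28 and 1.75 together with Cyp2g1, a cytochrome P450 of sustentacular cells, at 25.7. Sus held Cyp2g1 at 71.4 and Cyp1a2 at 15.4, but another sustentacular marker, Sec14l3, was at 0.200 there against 15.2 in HBC2. Of the Bowman's gland markers, the water channel Aqp5 (16.6) and the keratin Krt18 (46.9) were highest in Sus. Krt18 was not confined to Sus, with log2 fold changes over mature OSNs of 10.1 there, 8.92 in Mv1 and 8.86 in Mv2 (edgeR). On a list of 9 gland regulators and channels that holds both, Krt8 (27.6), Xbp1 (4.07) and Spdef (0.384) were also highest in Sus. Aqp3 peaked in HBC1 (27.6), Foxa1 in HBC2 (1.33), Sox8 in Mv1 (0.528) and Creb3l1 in mature OSNs (0.760). A further gland marker, Bpifb9a, has the same 3′ end as Bpifb9b and was not used. The 4 respiratory epithelium markers summed to 45.7 in HBC2, 31.0 in Sus, 12.2 in Immune, 9.97 in HBC1 and 0.795 in mature OSNs. Of these, Cyp2f2 made up 43.2 in HBC2, and the ciliated-cell genes Foxj1 and Dnah5 were at 0.350 and 0.147 there. Neutrophil markers in Sus were at 0.165 to 14.7 over the mice, and the part of other cell types in the values below was not tested. Sus and HBC2 are therefore called by these names below only as labels of the deposited clusters. No deposited type is named as gland or goblet cells.

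The genes lie on 5 autosomes and the X chromosome of the mouse genome (GRCm38). Obp2a and Obp2b are neighbours on chromosome 2, 33.7 kb apart, and Bpifa1 and Bpifb9b lie 158 kb apart on the same chromosome. RefSeq promoter windows, 250 bases before and 50 bases after the transcription start, were at hand for 7 of the 10 genes, and 5 are shown. Those of Bpifa1 and Reg3g are given because both genes peaked in HBC2, that of Scgb1c1 because it peaked in Sus, and those of Obp2a and Obp2b because their transcripts turned up in the same barcodes. All are written 5′ to 3′ on the gene's strand (GRCm38.p6), and capitals mark TATAAA on the gene's strand or the SOX core ACAAT on either strand (ATTGT when read on the other strand).
Bpifa1, chr2:154142630-154142929, plus strand: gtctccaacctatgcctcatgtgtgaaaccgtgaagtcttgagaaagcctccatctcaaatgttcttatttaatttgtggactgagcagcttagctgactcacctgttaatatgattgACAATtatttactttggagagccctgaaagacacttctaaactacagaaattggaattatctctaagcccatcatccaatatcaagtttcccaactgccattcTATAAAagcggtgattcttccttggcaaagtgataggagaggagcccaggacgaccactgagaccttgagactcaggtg
Reg3g, chr6:78468825-78469124, minus strand: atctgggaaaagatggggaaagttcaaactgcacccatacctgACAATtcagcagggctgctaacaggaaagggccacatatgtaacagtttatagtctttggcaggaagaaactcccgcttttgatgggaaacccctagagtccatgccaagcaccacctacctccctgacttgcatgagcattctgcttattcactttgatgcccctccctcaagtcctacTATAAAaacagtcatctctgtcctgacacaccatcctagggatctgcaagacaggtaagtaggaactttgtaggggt
Scgb1c1, chr7:140845315-140845614, plus strand: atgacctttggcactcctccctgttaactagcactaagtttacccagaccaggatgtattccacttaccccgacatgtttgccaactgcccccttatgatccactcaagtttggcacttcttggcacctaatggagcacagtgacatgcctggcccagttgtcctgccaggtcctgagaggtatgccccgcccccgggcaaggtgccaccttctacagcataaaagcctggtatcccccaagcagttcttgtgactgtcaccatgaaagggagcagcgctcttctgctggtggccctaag
Obp2a, chr2:25699824-25700123, plus strand: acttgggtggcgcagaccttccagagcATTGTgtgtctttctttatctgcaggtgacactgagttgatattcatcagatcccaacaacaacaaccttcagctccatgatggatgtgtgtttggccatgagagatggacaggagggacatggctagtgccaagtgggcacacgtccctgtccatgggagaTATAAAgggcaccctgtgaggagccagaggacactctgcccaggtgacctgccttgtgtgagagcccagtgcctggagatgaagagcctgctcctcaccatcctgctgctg
Obp2b, chr2:25736757-25737056, plus strand: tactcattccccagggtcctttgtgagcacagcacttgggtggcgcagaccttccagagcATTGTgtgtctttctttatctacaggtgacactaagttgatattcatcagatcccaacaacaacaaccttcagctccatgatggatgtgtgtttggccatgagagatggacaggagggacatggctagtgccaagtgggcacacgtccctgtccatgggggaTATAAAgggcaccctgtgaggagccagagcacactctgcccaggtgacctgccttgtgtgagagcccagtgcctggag

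TATAAA, the core of the TATA box, occurred in 8.32% of the 32851 promoter windows of the table. Among the listed genes it lay with its first base 29 bases before the RefSeq start site in Bpifa1, 27 in Reg3g, 30 in Obp1a, 28 in Obp2b, 61 in Obp2a and 47 in Bpifb9b, and the window of Scgb1c1 did not hold these letters. In the GENCODE annotation Obp2a and Bpifb9b start further upstream, at 25700043 and 154307227, so these 2 distances depend on the start site used. ACAAT, which 31.0% of all windows hold on either strand, was found in those of Bpifa1, Reg3g, Obp2a and Obp2b. The windows of Obp2a and Obp2b shared 263 of 267 aligned bases (98.5%), whereas the transcripts shared 76.4% of 673 aligned bases. For Bpifb9b the last 200 transcript bases, which a 3′ assay reads, matched those of Bpifb9a at 198 of 198 aligned bases, and reads that match both genes cannot be placed, so its counts are uncertain.

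Scgb1c1, a small secreted protein of the secretoglobin family, was the most widespread gland product. In Sus it reached 392, 343, 347 and 349 UMIs per 10000 in mice 1 to 4, with 333 of 336 cells carrying at least 1 UMI, and Sus held 68.7% of all its UMIs. HBC1 followed with 64.8, 46.3, 50.7 and 56.7, in 200 of 210 cells, and HBC2 with 31.1, 23.2, 43.9 and 13.7, in 281 of 544 cells. The ranges of Sus, HBC1 and HBC2 over mice did not overlap from one to the next. Next in order stood Immune (11.5 ± 11.5, SD, n = 4) and GBC (11.2 ± 15.5), which overlapped HBC2 and each other. Mv1 was at 0.559 ± 0.280 and Mv2 at 0.325 ± 0.0637. The 5 lowest means were those of mature OSNs (0.141 ± 0.0551), iOSN2 (0.110), INP (0.103), iOSN1 (0.0844) and Blood (0.0735), and no neighbours among them differed beyond their spread. Against mature OSNs, the log2 fold change was 11.40 (SE 1.04) in Sus, 8.52 (SE 0.93) in HBC1 and 7.72 (SE 0.90) in HBC2, with adjusted p of 4.1e-13, 1.0e-10 and 3.4e-10 (edgeR quasi-likelihood test, Benjamini-Hochberg over 13778 genes).

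**Figure D1:**
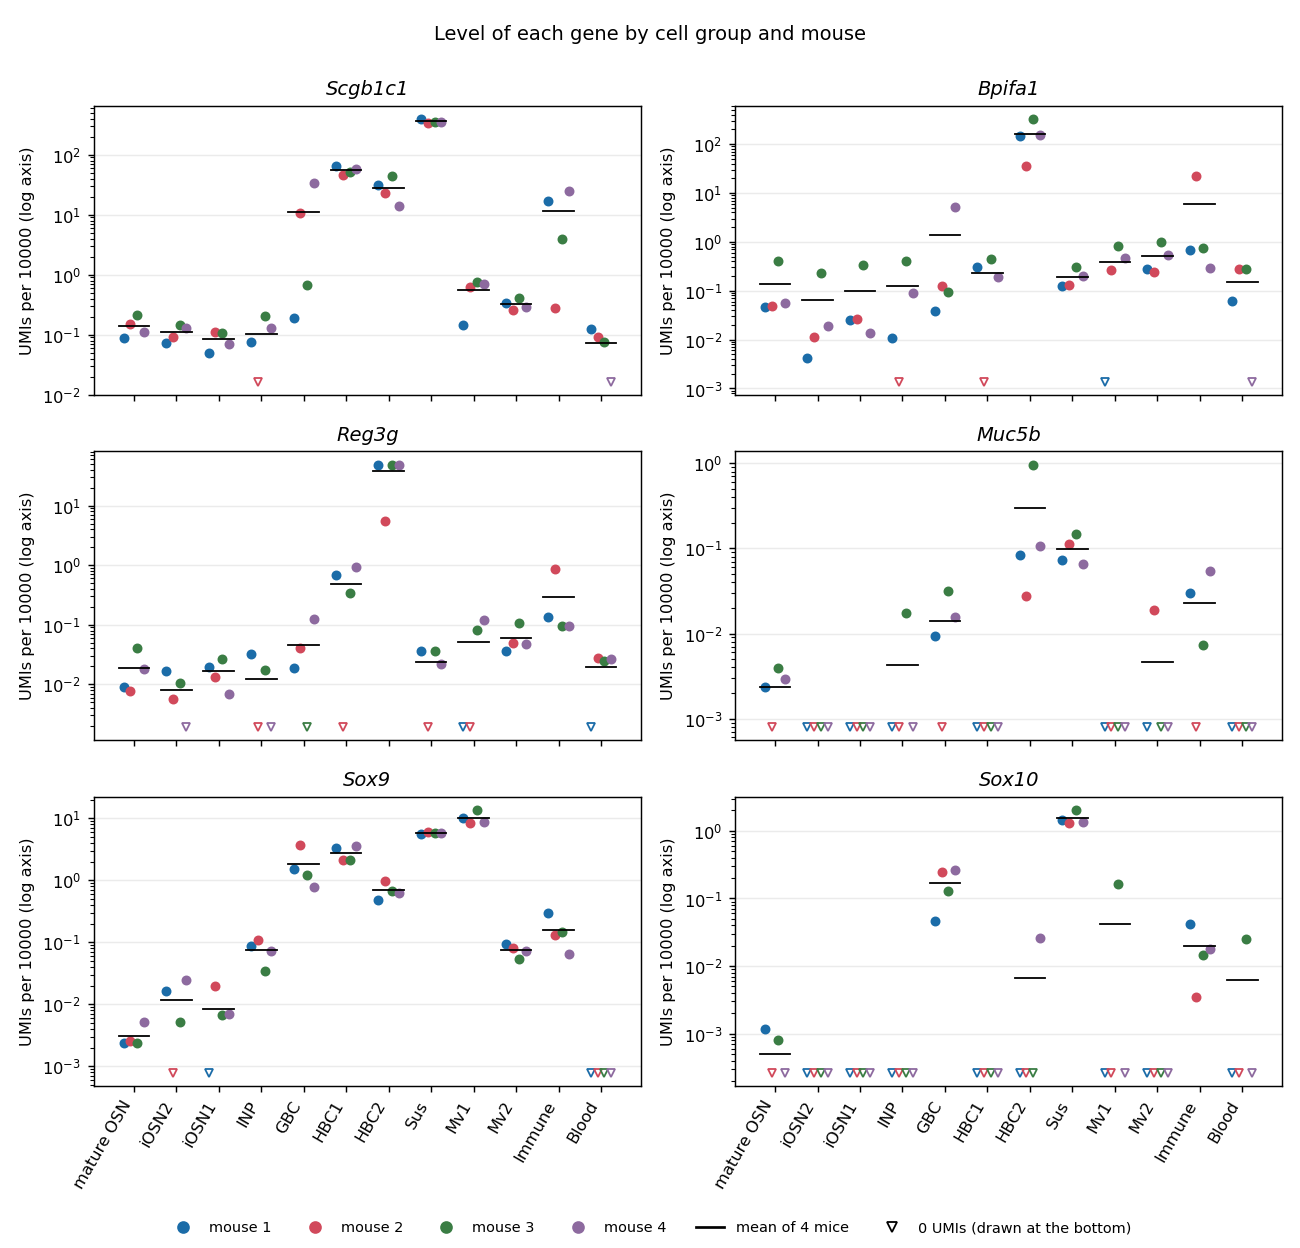
Level of 6 listed genes (UMIs per 10000, log axis) in the 12 cell groups, with 1 point per mouse, a bar at the mean of 4 mice, and triangles for groups with 0 UMIs. Scgb1c1 and Sox10 are highest in Sus in each mouse, Bpifa1 and Reg3g in HBC2, and Sox9 in Mv1, while the neuronal groups and Blood lie far lower.

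Within Sus, Scgb1c1 was also compared between cells with 10 or more and with 0 Cyp2g1 UMIs, a split that was made after the values had been seen. The 264 cells with 10 or more Cyp2g1 UMIs held Scgb1c1 at 249, 312, 296 and 337 UMIs per 10000 in mice 1 to 4. The 37 cells with 0 Cyp2g1 UMIs held it at 1211, 462, 416 and 734, which was above the first set in each mouse but rested on single cells. Without the cell with the most Scgb1c1 in each mouse and set, the 37 cells were at 472, 261, 196 and 497 against 249, 301, 276 and 318, so mice 2 and 3 turned. The 35 cells between, with 1 to 9 Cyp2g1 UMIs, were at 142, 445, 782 and 219. The median cell of the 37 was at 144, 253, 142 and 753 against 220, 252, 171 and 249, which was clearly higher in mouse 4 alone. In each mouse these 37 cells held less Aqp5 (9.55 ± 4.66 against 18.7 ± 2.06) and less Sox10 (0.543 ± 0.379 against 1.72 ± 0.362). The iron-binding protein Ltf was at 34.7 ± 19.8 against 14.6 ± 2.31, above the other set in mice 2, 3 and 4 and below it in mouse 1, and Sox9 stood at 5.05 ± 0.713 and 5.74 ± 0.152. The single cell with the most Scgb1c1, 7662 of its 22958 UMIs, was one of them, in mouse 1. Ranked by count, 44 cells held 50% of the gene's UMIs in Sus and 188 cells held 90%.

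**Figure D2:**
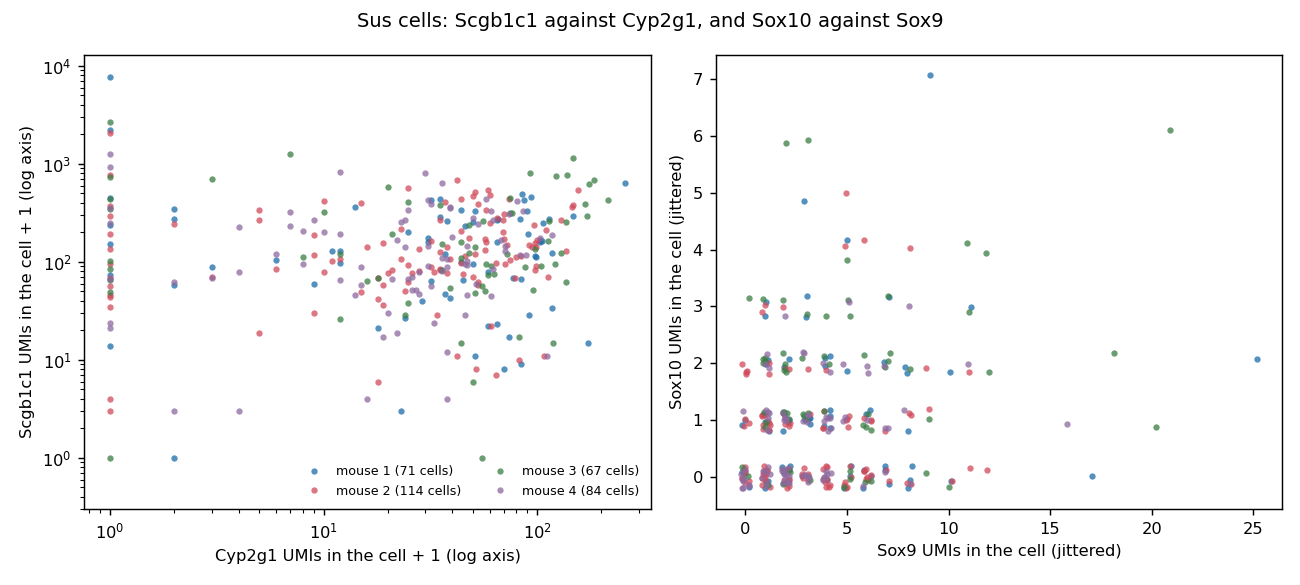
Single Sus cells of the 4 mice. Left, Scgb1c1 against Cyp2g1 (UMIs + 1, log axes), where a column of cells at 0 Cyp2g1 UMIs reaches up to 7662 Scgb1c1 UMIs. Right, Sox10 against Sox9 (UMIs, jittered), where 177 of 336 cells hold both, with Sox9 in 303 and Sox10 in 188.

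Bpifa1, a BPI-fold protein secreted onto airway surfaces, was concentrated in HBC2, which held 87.0% of its 99405 UMIs. Levels there were 145, 34.9, 325 and 154 UMIs per 10000 in mice 1 to 4, lowest in mouse 2 and highest in mouse 3. The next types, Immune (5.91 ± 10.7) and GBC (1.39 ± 2.60), overlapped each other but not HBC2. From GBC down to iOSN2 (0.0655 ± 0.109), each type overlapped the next. Few HBC2 cells made up most of this. Only 195 of 544 cells carried a UMI, against 544 expected if the UMIs had followed cell depth alone, and 96 carried 10 or more. As few as 5 cells held 50% of its HBC2 UMIs and 25 cells held 90%, with a maximum of 13591 UMIs in a cell of 28694. The log2 fold change of HBC2 against mature OSNs was 10.72 (SE 1.15, adjusted p = 3.1e-11, edgeR).

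Reg3g, a bactericidal lectin of barrier epithelia, was still more restricted by cell type, with 95.2% of its 21713 UMIs in HBC2. There it stood at 48.7, 5.51, 49.0 and 48.4 UMIs per 10000, so that mice 1, 3 and 4 were alike and mouse 2 was lower. HBC1 came next at 0.684, 0, 0.341 and 0.941 without overlap with HBC2, and from HBC1 downward neighbours overlapped. More HBC2 cells carried it than carried Bpifa1, 389 of 544, with 131 at 10 or more UMIs, 50% of the UMIs in 10 cells and 90% in 65. The log2 fold change against mature OSNs was 10.99 (SE 0.61, adjusted p = 3.0e-20) in HBC2 and 4.79 (SE 0.95, adjusted p = 3.0e-05) in HBC1 (edgeR). The HBC1 value rests on 57 UMIs in 16 of 210 cells, against 47.2 cells expected from depth alone, and 1 cell held 17 of them.

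**Figure D3:**
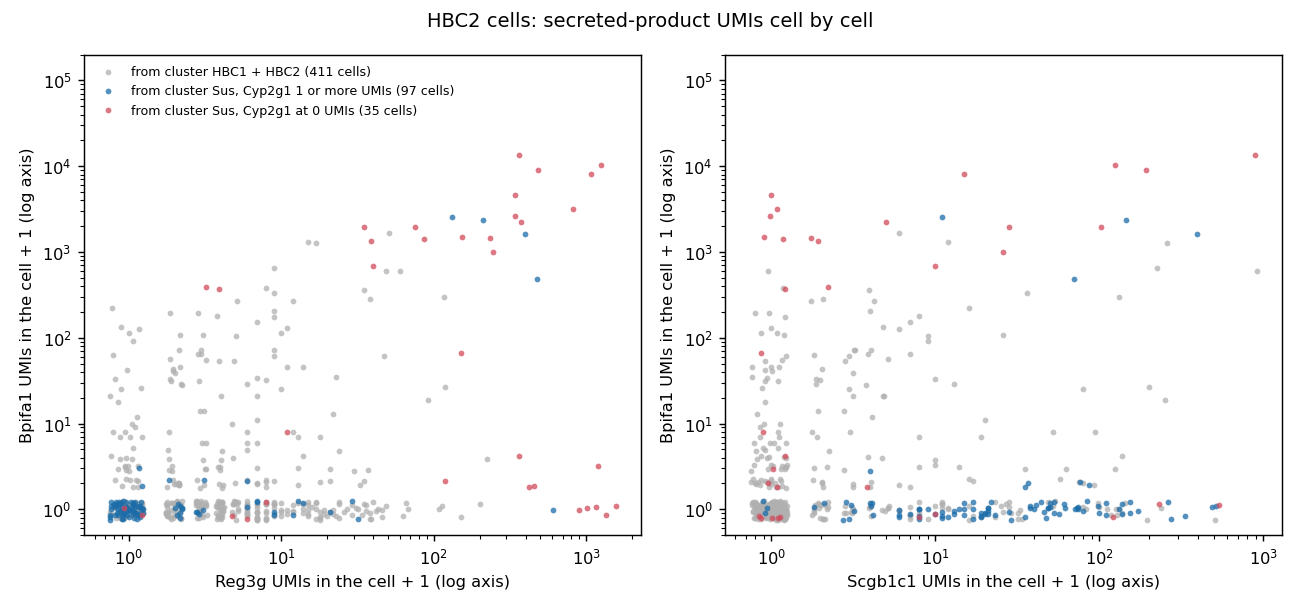
HBC2 cells, with Bpifa1 against Reg3g (left) and against Scgb1c1 (right) in UMIs + 1 on log axes (jittered at low counts), coloured by the cluster that held the cell before filtering and by Cyp2g1. The cells with the most Bpifa1 UMIs come largely from the 35 cells without Cyp2g1, while the 97 cells with Cyp2g1 run along the bottom with Scgb1c1 except for 4 cells of mouse 1 with 482 to 2548 Bpifa1 UMIs.

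HBC2 was not uniform for these products. Before the study's filtering, 411 of its 544 cells had been in a cluster shared with HBC1 and 132 in the cluster of sustentacular cells, and the latter were divided here by Cyp2g1 (a split made after the values had been seen, so no test is given). The 411 cells held Krt5 at 11.6, Krt14 at 13.6 and Trp63 at 2.82 UMIs per 10000. In them Bpifa1 was at 40.5, 57.5, 29.3 and 64.7 in mice 1 to 4, in 160 cells, and Reg3g at 18.2, 8.34, 10.0 and 8.04, in 324 cells. Mouse 2 was the second highest for Bpifa1 and the third for Reg3g in this set.

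The 35 cells of the sustentacular cluster without Cyp2g1 were the richest in Bpifa1, Reg3g and Muc5b. Mice 1, 3 and 4 gave 13, 14 and 8 of them and mouse 2 gave none. Their Bpifa1 level was 858, 1764 and 1197 UMIs per 10000 and their Reg3g level 296, 244 and 447. They held 65856 of the 86444 Bpifa1 UMIs of HBC2 and 14643 of its 20672 Reg3g UMIs, and 106 of its 154 Muc5b UMIs. Krt14 and Trp63 were at 0 UMIs in them, Krt5 at 0.112 per 10000, Ltf at 18.7 and Sec14l3 at 9.62, and Scgb1c1 was in 18 of them at 17.0, 80.2 and 17.6. Cyp2f2, a P450 of airway secretory cells, was abundant in all 3 sets of HBC2 cells (41.0 here, 47.4 in the 411 and 35.2 in the 97), and higher in the 411 than in the 97 in each mouse. The 97 cells with Cyp2g1 held Cyp2g1 at 87.7 and Sec14l3 at 48.6. In 94 of these 97 cells Scgb1c1 was present (44.5 ± 23.2), while Sox9 (0.0821) was low and Bpifa1 was at 149, 0, 0.202 and 0. All 4 of these cells with 10 or more Bpifa1 UMIs were from mouse 1 and held only 1 or 2 Cyp2g1 UMIs each.

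The 3 abundant products were partly found in the same HBC2 cells. Of the 96 cells with 10 or more Bpifa1 UMIs, 39 (40.6%) also reached 10 UMIs of Reg3g, against 20.5% of the other HBC2 cells. Scgb1c1 reached 10 UMIs in 25% of the cells with 10 or more Bpifa1 UMIs and in 27.9% of the other HBC2 cells. It did so in 32.1% of the 131 cells with 10 or more Reg3g UMIs and in 25.9% of the others. For Bpifa1 the mice did not share a direction. Scgb1c1 reached 10 UMIs in 13 of 41, 1 of 12, 6 of 17 and 4 of 26 such cells in mice 1 to 4. Of all HBC2 cells it did so in 64 of 225, 20 of 61, 44 of 136 and 21 of 122. Together, 17 cells reached 10 UMIs of all 3 products and 256 of none. Cells of 1 mouse are not replicates, and the overlaps are given with no test.

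Muc5b, the gel-forming mucin of airway glands and goblet cells, was rare. It had 254 UMIs in all 21809 barcodes. HBC2 held 154 of them, as 18, 1, 127 and 8 UMIs in mice 1 to 4, with mouse 3 far above the others. Only 18 HBC2 cells carried a UMI where 98.9 would be expected if the UMIs had followed depth, and 3 cells of mouse 3 held 43, 38 and 35. Over all barcodes 4 reached 10 UMIs, and all 4 were in mouse 3: these 3 cells, and a further barcode with 13 UMIs in the clusters rich in mitochondrial RNA. The mean HBC2 level was 0.296 UMIs per 10000 with all mice and 0.0726 without mouse 3. The log2 fold change against mature OSNs was 6.34 (SE 0.77, adjusted p = 2.2e-08, edgeR). Without mouse 3, Muc5b had too few UMIs to be tested, so this call was not tried without that mouse.

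The cells with Muc5b were of more than one kind. The 3 HBC2 cells with 10 or more UMIs held Bpifa1 at 2352 and Reg3g at 337 UMIs per 10000 (pooled over the cells). These 3 cells were unlike. The cell with 43 Muc5b UMIs held 8123 Bpifa1 UMIs of 23002, and that with 38 held 996 of 6354. The cell with 35 held 359 of 10940, with 9 Krt5, 7 Krt14 and 3 Cyp2g1 UMIs. It was among the highest doublet scores, and the part of doublets was not tested. The 5 HBC2 cells with 3 to 9 Muc5b UMIs, from mice 1, 3 and 4, held Bpifa1 at 1356 and Reg3g at 346. In Sus, Muc5b was at 0.0723, 0.112, 0.146 and 0.0660 UMIs per 10000, with 22 UMIs in 11 cells. The 3 Sus cells with 3 to 9 Muc5b UMIs, from mice 1, 2 and 3, had no Bpifa1 and no Reg3g. They carried Scgb1c1 at 172, Sox9 at 7.88 and Sox10 at 2.25. The log2 fold change of Sus against mature OSNs was 5.26 (SE 0.92, adjusted p = 1.1e-05, edgeR). In HBC1, 0 of 210 cells had a Muc5b UMI, which at this depth allows up to 1.43% of cells with a UMI and sets no limit on cells that express the gene.

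Sox9 was found in most of the non-neuronal types. Mv1, the microvillar cells with tuft-cell markers, was highest at 10.2, 8.51, 13.6 and 8.78 UMIs per 10000, in 114 of 124 cells. In mouse 3, a single Mv1 barcode held 44 of the Sox9 UMIs. This barcode had been with GBC before filtering and was among the highest doublet scores, and its part in the level was not tested. Sus followed at 5.68, 6.08, 5.83 and 5.74, in 303 of 336 cells, so the mice were alike. HBC1 was at 2.80 ± 0.769, GBC at 1.83 ± 1.30 and HBC2 at 0.691 ± 0.214. Mv1, Sus and HBC1 did not overlap in this order, HBC1, GBC and HBC2 each overlapped the next, and HBC2 did not overlap Immune (0.159 ± 0.0979). Mv2 was far lower, at 0.0756 ± 0.0165 in 50 of 1768 cells, next to INP (0.0759 ± 0.0313). Mature OSNs held 17 UMIs in 10519 cells (0.00313 per 10000) and Blood none. Against mature OSNs the log2 fold change was 11.09 (SE 0.34) in Mv1, 10.72 (SE 0.29) in Sus, 9.55 (SE 0.41) in HBC1, 8.63 (SE 0.40) in GBC and 7.43 (SE 0.42) in HBC2.

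Sox10 was nearly a Sus transcript, with 335 of its 401 UMIs in that type. It stood at 1.46, 1.31, 2.03 and 1.34 UMIs per 10000 there, in 188 of 336 cells. Of these, 177 also carried Sox9, but so did 303 of all 336 Sus cells, so the overlap is not read as a link. GBC came next at 0.0471, 0.249, 0.127 and 0.265, well below Sus in each mouse. Mv1, which was highest for Sox9, had Sox10 in 1 of 124 cells, and HBC1 in 0 of 210, which allows up to 1.43% of cells with a UMI. Mature OSNs held 3 Sox10 UMIs, so the pooled ratio of Sus to mature OSNs, 2793, has a 95% counting interval from 948 to 13612. The fitted log2 fold change of 10.51 (SE 0.64, adjusted p = 9.0e-15, edgeR) rests on the same 3 UMIs. After each cell was thinned to 2000 UMIs, Sox10 was seen in 27.1% of Sus cells against 58.2% before (means of mice), so the share depends on depth.

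In GBC, Sox9 was carried by a minority of 63 of 202 cells, in place of 138 under an even spread, and 30 cells held 3 or more UMIs. These 30 cells had less of the division gene Top2a (3.42 against 8.10 UMIs per 10000, pooled over cells) and more Krt18 (8.73 against 3.48) than the other 172, a split made after the values were seen. GBC as a whole also held fibroblast markers at 5.16 UMIs per 10000, those of olfactory ensheathing glia at 2.82 and those of ionocyte-type microvillar cells at 5.71, summed over each list, and their part in these values was not tested.

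The odorant-binding lipocalins were close to absent from these cells. Obp2a had 153 UMIs in 83 barcodes, Obp1a 73 in 52 and Obp2b 45 in 24. The highest mean level of any type was 0.0581 ± 0.0693 UMIs per 10000 for Obp2a (HBC2), 0.0282 ± 0.0248 for Obp1a (Immune) and 0.0132 ± 0.0264 for Obp2b (HBC2), and each overlapped the next type. A few barcodes stood out. A barcode of mouse 2 with only 910 UMIs, in the clusters rich in mitochondrial RNA, held 24 Obp2a and 15 Obp2b UMIs, a Blood barcode of mouse 2 with 2607 UMIs of the haemoglobin gene Hba-a1 held 11 and 5, and an HBC2 cell of mouse 4 held 7 and 3. Of the 24 barcodes with Obp2b, 10 (41.7%) also held Obp2a, which was found in 0.381% of all barcodes. For Obp1a the share that held Obp2a was 17 of 52 (32.7%). In mature OSNs the 21 Obp2a UMIs lay in 17 cells, with at most 2 in a cell.

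Bpifb9b, a BPI-fold gene of the gland cluster on chromosome 2, had 78 UMIs in 54 barcodes. A barcode of mouse 3 with 1488 UMIs, placed with Mv1 before filtering and then removed, held 13 of them and 3 UMIs of Sox9. Immune held 16, each in a cell of its own, and mature OSNs 13 in 12 cells. The highest mean level, 0.0186 ± 0.0202 UMIs per 10000 in Immune, overlapped all types below it down to those at 0. Reads shared with Bpifb9a limit this count, as above.

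Transcripts from burst cells float in the suspension and are captured with any cell, so low levels in many types are given per barcode and set beside the spread over cells. The part of free RNA in them was not measured. Scgb1c1 came to 7.05 UMIs per 100 barcodes in mature OSNs, 8.25 in iOSN2, 6.12 in iOSN1, 9.15 in INP and 5.41 in Blood. Bpifa1 came to 6.76, 4.97, 7.16, 10.2 and 13.7 in the same order, and Reg3g to 0.951, 0.696, 1.27, 1.41 and 1.59. In mature OSNs the UMIs were also spread thinly, with Scgb1c1 in 625 cells against 706 expected from depth alone, Bpifa1 in 511 against 640 and Reg3g in 90 against 99.0.

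The mice differed in the make-up of these low levels. The ratio of Bpifa1 to Scgb1c1 UMIs in mature OSNs was 0.544, 0.312, 1.86 and 0.510 in mice 1 to 4, beside 0.912, 0.325, 1.65 and 0.496 over all barcodes of the library. In the immature neurons and INP together it was 0.200, 0.182, 2.11 and 0.263. Mouse 3 was highest and mouse 2 lowest in these 3 sets. The order was another in Mv2 (0.800, 0.905, 2.45 and 1.85). In Blood the ratio was 0.5, 3 and 3.67 in mice 1 to 3, with 0 UMIs of both genes in mouse 4. These Blood ratios rest on 2, 30 and 11 Bpifa1 UMIs and 4, 10 and 3 Scgb1c1 UMIs. A single Blood cell held 12 of the Bpifa1 UMIs, so no order of mice is read from Blood. The ratio of Reg3g to Scgb1c1 had another order, at 0.102, 0.0511, 0.190 and 0.166 in mature OSNs, on 9 to 51 Reg3g UMIs per mouse. Over all barcodes it was 0.306, 0.0209, 0.240 and 0.148. In the immature neurons and INP it was lowest in mouse 4 (0.0263), where it rests on 1 Reg3g UMI. The Bpifa1 level of mature OSNs was 0.397 UMIs per 10000 in mouse 3 and 0.0476 to 0.0567 in the other mice. These low levels in neurons are not read as expression, although single mature OSNs held up to 18 Scgb1c1 and 14 Bpifa1 UMIs. The haemoglobin genes, known from red blood cells, were at 0.747 UMIs per 10000 in mature OSNs, 0.705 in HBC1, 0.549 in HBC2, 0.470 in Sus and 1.73 in GBC. The mean of 6.48 in iOSN1 came from mouse 4, where the level was 26.1 times that of mature OSNs, against 0.493 to 1.04 times in the other mice.

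**Figure D4:**
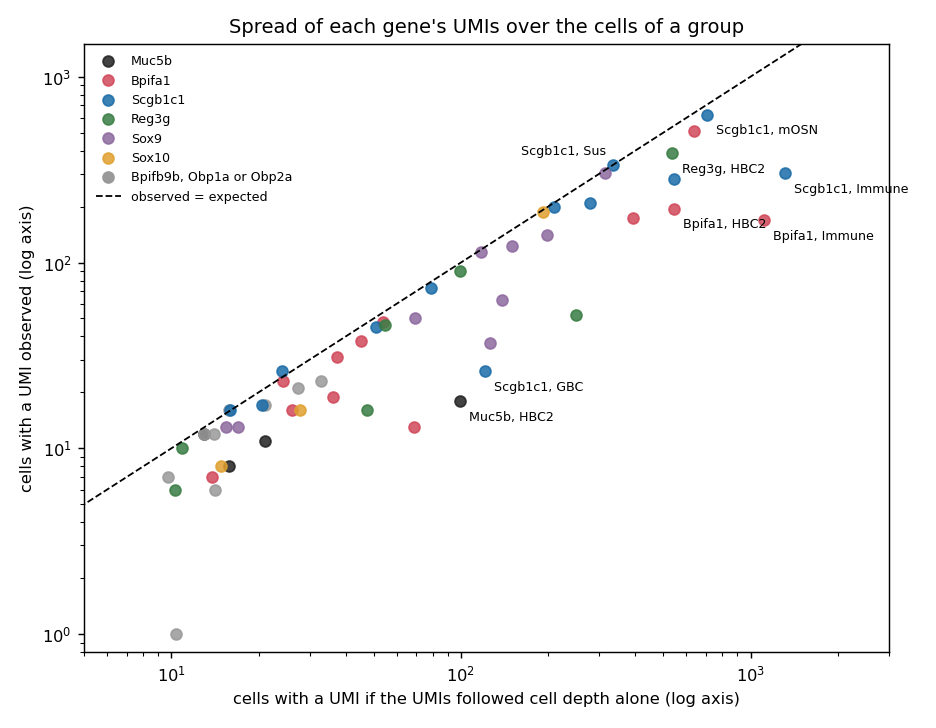
Number of cells with at least 1 UMI of a listed gene (log axis) against the number expected if its UMIs had followed cell depth alone (log axis), for each gene and group with at least 10 UMIs. Neurons, and Sus for Sox9 and Sox10, lie near the line. Sus lies there for Scgb1c1 too, but with 336 of 336 cells expected the measure cannot show unevenness. HBC2, GBC and Immune fall below the line for Scgb1c1, Bpifa1 and Reg3g, as does HBC1 for Reg3g. In these, fewer cells hold the UMIs than depth alone would give.

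Mv2 lay above the neurons for some of these products. Haemoglobin was there at 1.33 UMIs per 10000, which was 3.64 times the level of mature OSNs in mouse 4 and 0.828 to 1.34 times in the other mice, and the part of free RNA was not tested. It held Scgb1c1 at 17.6 UMIs per 100 barcodes and Bpifa1 at 27.6, and 173 of 1768 cells had a Bpifa1 UMI against 394 expected. The log2 fold change against mature OSNs was 1.97 (SE 0.89, adjusted p = 0.045) for Bpifa1 and 1.02 (SE 0.77, adjusted p = 0.23) for Scgb1c1 (edgeR). The call for Bpifa1 was lost without mouse 1 (log2 fold change 1.89, adjusted p = 0.11) and without mouse 4 (1.74, adjusted p = 0.079), and in a fit without the mouse block (1.74, adjusted p = 0.10). Scgb1c1 was called without the high barcodes of GBC and Immune that are described next (log2 fold change 1.07, adjusted p = 0.0051).

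In Immune, most of the secreted products came from 5 barcodes. Scgb1c1 was at 16.6, 0.280, 3.90 and 25.1 UMIs per 10000 in mice 1 to 4, and Bpifa1 at 0.679, 21.9, 0.765 and 0.288. The highest single barcode for Scgb1c1, in mouse 4, held 3796 of its 14783 UMIs, and that for Bpifa1, in mouse 2, held 6220 of 37624. The 5 barcodes with 100 or more UMIs of a listed gene had 14783 to 37624 UMIs against the Immune median of 2144. Each also held the leukocyte transcripts Ptprc (2 to 6 UMIs), Tyrobp (12 to 34) and Cd52 (12 to 55), and 2 of the 5 were among the barcodes with the highest doublet scores. Each barcode thus held leukocyte and secretory transcripts together, and the part of doublets in this was not tested.

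Without these 5 barcodes the Immune level of Scgb1c1 was 1.57, 0.270, 0.924 and 0.599 (mean 0.841 in place of 11.5), that of Bpifa1 averaged 0.469 in place of 5.91, and that of Reg3g 0.0855 in place of 0.298. In mouse 2, whose Bpifa1 barcode also held 244 Reg3g UMIs, Bpifa1 was then 0.128 and Reg3g 0.0142. Against mature OSNs the log2 fold change went from 6.42 to 2.75 for Scgb1c1 (adjusted p = 7.5e-10), from 5.95 to 2.33 for Bpifa1 (adjusted p = 2.9e-06) and from 4.43 to 2.36 for Reg3g (adjusted p = 3.1e-06), so all 3 stayed higher. The Immune barcodes left held 28.6 Scgb1c1 UMIs per 100 barcodes and the mature OSNs 7.05. The neuronal transcripts of mature OSNs were at 21.7 UMIs per 10000 in Immune (263 in mature OSNs) and haemoglobin at 17.2 ± 26.4 (0.236 to 56.0 over the mice, high in mice 2 and 3). The respiratory epithelium markers were at 10.8 to 12.9 there over the mice, of which Ltf, also a neutrophil granule gene, averaged 11.9 and Cyp2f2 0.192, and the part of these transcripts in these values was not tested.

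For GBC the same step left out 3 barcodes, 1 of mouse 2 and 2 of mouse 4. A barcode of mouse 4 held 2119 Scgb1c1 UMIs of 4775, and another 337 Bpifa1 UMIs of 33391. The mean Scgb1c1 level went from 11.2 to 0.515 UMIs per 10000 and its log2 fold change from 5.94 to 1.41 (adjusted p = 0.0055, edgeR). Bpifa1 went from 1.39 to 0.0633 UMIs per 10000, below the mature OSNs, and its fold change turned from 3.77 to -1.13 (adjusted p = 0.30). Leaving out mouse 4 also turned it (-0.94, adjusted p = 0.69).

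**Figure D5:**
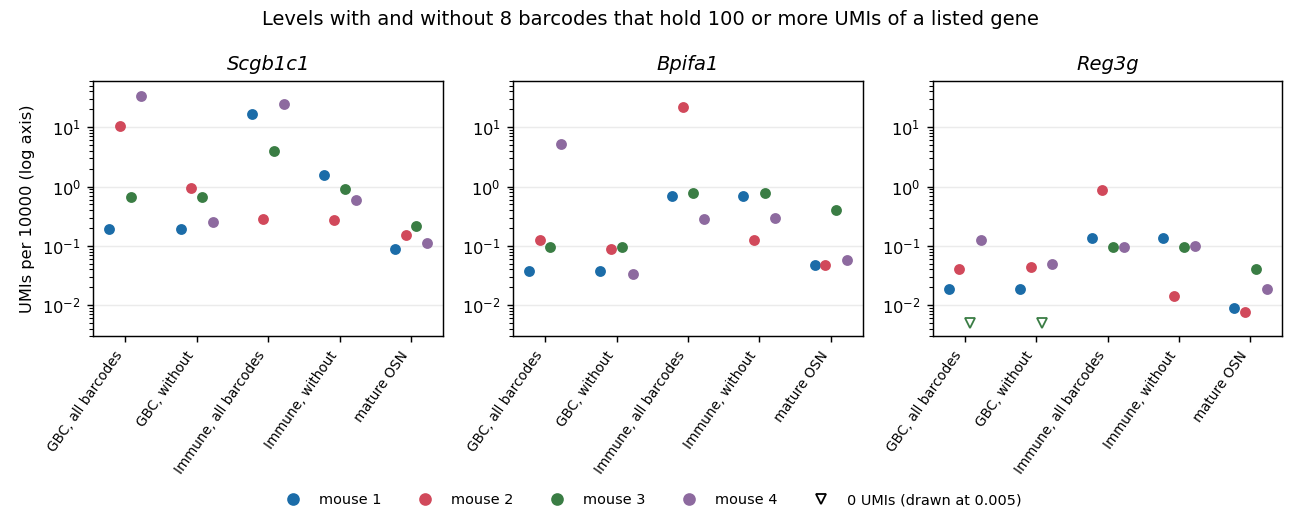
Level of Scgb1c1, Bpifa1 and Reg3g (UMIs per 10000, log axis) in GBC and Immune for each mouse, with all barcodes and without the 8 that hold 100 or more UMIs of a listed gene, beside mature OSNs. Scgb1c1 in Immune averages 11.5 with them and 0.841 without, and Bpifa1 in GBC 1.39 and 0.0633.

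Sox9 and Sox10 were also low but present in Immune. Sox9 had 137 UMIs in 37 of 2391 cells, where 126 cells would be expected from depth, and 19 of the cells held 3 or more. Of the 37 cells, 22 also held Scgb1c1 and 7 held Sox10, beside 303 and 8 of all 2391 Immune cells. The log2 fold change against mature OSNs was 5.65 (SE 0.52) with all barcodes and 5.55 without the 5, and that of Sox10 was 4.27 (SE 0.81) and 3.66 (adjusted p = 4.8e-04, edgeR). For Sox10 the 15 UMIs were 10 without the 5 barcodes, the mean level was 0.0128 in place of 0.0196 UMIs per 10000 with mouse 4 at 0, and the call was lost after thinning (2.28, adjusted p = 0.059). In Blood, where haemoglobin genes made up 5680 of 10000 UMIs, Sox9 and Muc5b had 0 UMIs in 314 cells, which allows up to 0.955% of cells with a UMI in cells where few other transcripts are read, and Sox10 had 1 UMI.

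Over all types, 6 of the 10 genes had enough UMIs to be tested, and Bpifb9b, Obp1a, Obp2a and Obp2b did not. A gene that is near 0 in neurons enters the test only through a type where it is high, so the counts describe these 6 genes and not the list. Types were drawn on the same cells, and all 11 comparisons share the mature OSNs, so the tests say only how stable the levels were over mice. Of 66 pairs of gene and type, 27 were higher than in mature OSNs and 0 lower at an adjusted p under 0.05 (edgeR), with 27 and 0 at an unadjusted p under 0.05 and 28 and 0 by DESeq2. In HBC2, 5 of 6 were higher, where 37.9% of the 13778 tested genes were. The share of all genes stood at 32.9% in Sus (4 of the 6 listed genes), 39% in GBC (4), 29.4% in HBC1 (3), 21% in Mv1 (2), 37.8% in Mv2 (2), 42% in Immune (6) and 29.7% in INP (1, Sox9).

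None of the 6 was called in iOSN2 (12.7% of all genes), iOSN1 (27.5%) or Blood (22.8%). At an unadjusted p under 0.05 these counts were also 0, and DESeq2 called 1 in iOSN2 (Sox9), 0 in iOSN1 and 1 in Blood (Sox10). The median log2 fold change of the 6 genes was 7.58 in HBC2 and 7.89 in Sus, beside 0.02 and -0.05 over all genes tested, and -0.98 in iOSN2 and -0.74 in iOSN1, beside -0.05 and -0.01. In Blood it was 1.18, beside -0.53. These medians carry the same limit as the counts, since a gene near 0 in neurons was tested only because another type held it. They describe the 6 genes, and their distance from the medians of all genes is not read as a result. Sox10 in Mv1 was called on 2 UMIs of 1 cell in mouse 3 (log2 fold change 4.79, adjusted p = 0.028), and without mouse 3 the value was -0.83 (adjusted p = 0.94).

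Other genes of the same families gave the setting. As above, a gene near 0 in neurons was tested only because another type held it, so the counts describe the genes tested and not their families. The high barcodes of GBC and Immune were kept in these tests. Among mucus genes, 7 of the 11 listed were tested and all 7 were higher than mature OSNs in HBC2 (37.9% of all genes were), 6 in Immune (42%) and 5 in Sus (32.9%). Agr2, which folds mucins, was highest in Sus (26.3 ± 1.59 UMIs per 10000), the gel-forming Muc2 in HBC2 (2.49 ± 1.14), and the membrane mucins Muc1 and Muc20 in Mv2 (3.40 ± 0.400 and 3.88 ± 0.450). The trefoil peptide Tff2 was also highest in HBC2 (1.96 ± 0.994), and Muc5ac, the goblet-cell mucin, had a highest mean of 0.0207. Thus Muc2 was on average more abundant in HBC2 than Muc5b (0.296 ± 0.448).

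Of the 8 other BPI-fold genes 2 were tested, and both were higher in Sus (32.9% of all genes), GBC (39%) and Immune (42%). Bpifb4 was also called in Mv1 (21% of all genes), with a log2 fold change of 7.70 (adjusted p = 5.9e-07, edgeR). Bpifb3 ranged from 2.76 to 93.9 UMIs per 10000 over the mice in Sus and Bpifb4 from 0.496 to 5.25, and neither was called in HBC2, where Bpifa1 peaked. Among antimicrobial genes 5 of 10 were tested and all 5 were higher in HBC2, Sus and Immune, where 37.9%, 32.9% and 42% of all genes were. Ltf was highest in Sus (17.6 ± 2.06), Wfdc2 in Mv2 (46.3 ± 5.47), and Lyz2 (72.7 ± 5.39) and Slpi (2.58 ± 0.590) in Immune. Reg3a and Reg3b, the nearest relatives of Reg3g on the list, had 0 UMIs in the 12 groups. Of the other lipocalins only Lcn2 was tested, and it was highest in Immune (17.3 ± 3.68), while Obp1b, Mup4 and Lcn3 had no mean above 0.0180. No secretoglobin besides Scgb1c1 was tested, and the highest, Scgb3a1, reached 0.160 ± 0.132 in HBC2.

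The genes with the most similar pattern over the 48 sums of mouse and group were named for each listed gene, as Pearson's r of log levels among 11998 genes and with no p. For Scgb1c1 these were Clu (0.94), Sult1e1 (0.92) and Aqp5 (0.92), and for Sox10 Prss33 (0.95), Gata6 (0.94) and Svopl (0.94). For Reg3g they included Serpinb11 (0.94) and Tff2 (0.93), and for Bpifa1 they were Tff2 (0.91), Reg3g (0.91) and Serpinb11 (0.90). For Sox9 they were Bambi (0.91), Tgfb2 (0.90) and Stard5 (0.89). Muc5b reached only 0.71 with Sftpd, and no gene was above 0.673 for the lipocalins or Bpifb9b, whose counts are too low for the measure. The sums share libraries and depth.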

How the data were processed

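Per the labels, 1 library was made from the main olfactory epithelium of each of 4 mice. Alignment was by Cell Ranger 6.0.1 to GRCm38, with olfactory receptor 3′ ends redrawn in the annotation, and the authors deposited raw UMI counts per gene and barcode. They also deposited the cluster of each barcode, found in Seurat after integration of the mice. Counts of all 10 genes in the merged table were checked against the single matrices, and 0 cells differed. The authors removed immune, blood and mitochondria-rich clusters, then cells over 10% mitochondrial UMIs or under 1000 genes.

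Counts were summed per mouse and group (12 groups, 48 sums) and tested in edgeR 4.0.16 (R 4.3.3) by the quasi-likelihood test with TMM scaling, filterByExpr and the mouse as a block, each of 11 groups against mature OSNs, with Benjamini-Hochberg adjustment over 13778 genes at 0.05. The groups of 1 mouse share its animal and library, which is the pairing. SE is the log2 fold change divided by the root of its F. Intervals are exact or Wilson 95% and cover counting error only, and a share at 0 is bounded by 3 counts. For thinned shares each cell was thinned to 2000 UMIs. Similarity used log2 levels with a pseudocount of 0.1 for genes with at least 500 UMIs. Scrublet (scanpy 1.11.5) called 3, 1, 3 and 37 doublets in mice 1 to 4. These were at most 0.616% of the barcodes of a mouse, against an expected rate of 5%. The calls were therefore not used, and no barcode was removed. The 4% with the highest scores were left out as an alternative. The test was also run on simulated counts, whose outcome is not reported here and is not used as support. Alternatives were DESeq2 1.42.0, other scalings, no filter, no block, each group alone, thinning, a minimum of 2000 genes, each mouse left out and, chosen after seeing the data, the 8 barcodes with 100 or more UMIs of a listed gene in GBC and Immune left out, and the top cell of each mouse left out. Members, companion lists and markers were chosen with earlier results of these data known. Named companions were the 4 highest of each list. Tff2, Muc5ac, Reg3a, Reg3b and the remaining genes of the gland list were added after their values were seen. One gene similar to Reg3g is not reported here. Mice are named by the number in their label.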

Additional observations from a re-analysis of the deposited data

Results flagged for a closer look

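In 10 of the 41 combinations of listed gene and group with at least 20 UMIs, 1 mouse stood far from the other 3 (Dixon's test at 95%). The test flags about 1 in 20 by chance only for normal, independent values. Here single barcodes hold much of some levels and the groups of a mouse share a library, so the count is not set against that rate. Mouse 3 was high for Muc5b in HBC2 (0.966 UMIs per 10000), for Bpifa1 in mature OSNs (0.397), iOSN2 (0.228) and iOSN1 (0.338), and for Obp1a in Immune (0.0653). Mouse 2 was high for Bpifa1 (21.9) and Reg3g (0.868) in Immune, where 1 barcode holds 6220 and 244 of those UMIs, and low for Reg3g in HBC2 (5.51). Mouse 4 was high for Bpifa1 in GBC (5.29), where 1 barcode holds 337 UMIs, and mouse 1 for Scgb1c1 in Sus (392), where 1 cell holds 7662.

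The 3245 barcodes that belong to no retained type and neither to Immune nor to Blood enter no test. For each listed gene they held more UMIs per 10000 than mature OSNs did. The counts were 4515 for Bpifa1, 3501 for Scgb1c1, 471 for Reg3g, 250 for Sox9, 52 for Obp2a, 42 for Muc5b, 32 for Bpifb9b, 23 for Obp2b, 19 for Obp1a and 11 for Sox10. These barcodes are shallow, with a median of 932 UMIs in the mitochondria-rich clusters and 1074 in the rest. As a share of each gene's UMIs they held 51.1% of Obp2b, 41.0% of Bpifb9b, 34.0% of Obp2a and 26.0% of Obp1a, but 4.54% of Bpifa1 and 3.09% of Scgb1c1. Without mouse 2 the share was 17.6% for Obp2b and 20% for Obp2a, without mouse 1 it was 17.5% for Obp1a, and without mouse 3 it was 1.97% for Bpifa1.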

How the results depend on the processing

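The count of 27 gene and type pairs higher than mature OSNs was 27 with RLE size factors and with library totals only, 26 with no replicate block (the mouse), 28 with DESeq2, 29 without the highest doublet scores (7 genes tested), 28 without the high barcodes, 30 with each group fitted alone (fewer pairs tested), 37 with no low-count filter (all 10 genes), and 23 after thinning or with a minimum of 2000 genes (5 genes tested in each). Leaving out 1 mouse gave 23 to 28, with 5 genes tested without mouse 1 or mouse 3, and it gave -0.94 to 4.77 for Bpifa1 in GBC and -0.83 to 5.79 for Sox10 in Mv1. Of the 27 pairs, 22 kept their call in every alternative that tested them. Muc5b was not tested after thinning, with a minimum of 2000 genes, or without mouse 1 or mouse 3. Its HBC2 call was thus never tried without mouse 3, which held most of its UMIs there. The call for Bpifa1 in GBC was lost and its sign turned without the high barcodes (-1.13) and without mouse 4 (-0.94). That for Sox10 in Mv1, which rests on 1 cell, was lost with a turned sign after thinning (-0.31), without the highest doublet scores (-0.90) and without mouse 3 (-0.83). Muc5b in Immune lost its call without the high barcodes (1.88, adjusted p = 0.086, edgeR) and without mouse 4 (2.21, adjusted p = 0.11), and Sox10 in Immune after thinning (2.28, adjusted p = 0.059). Bpifa1 in Mv2 lost it in 6 of 14 alternatives. In Immune, without mouse 2 Bpifa1 went from 5.95 to 2.44 and Reg3g from 4.43 to 2.43, and both kept their calls. Another 18 values passed the threshold in an alternative, 9 of them with each group fitted alone, where Bpifa1 was lower in iOSN2 (-1.57) and iOSN1 (-0.87) and Scgb1c1 lower in iOSN1 (-0.90). Without the high barcodes Bpifa1 in Blood was called (2.35, adjusted p = 0.0046, edgeR). Cells with at least 3 Muc5b UMIs numbered 17 in place of 4 with at least 10. The scalings moved the median of all genes in Blood from -0.53 to -1.76 with library totals, and in Mv1 from -0.30 to 0.02. In Blood the higher and lower calls over all genes went from 3143 and 4625 to 1688 and 8645. Of the Sus level of Scgb1c1 (358 ± 22.8 UMIs per 10000), 303 was left without the top cell of each mouse. At this depth the lipocalins and Bpifb9b could not be ranked among types.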
